A study of Mus musculus with 2 samples.

Results

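The Egr and Nr4a genes encode 2 families of transcription factors that cells switch on within minutes of a stimulus. They were examined in DNase-seq of the left cerebral cortex, an assay in which nuclei are treated with the enzyme DNase I and the cut ends are sequenced, so that open chromatin appears as peaks of cuts. All 4 Egr genes (Egr1, Egr2, Egr3 and Egr4) and all 3 Nr4a genes (Nr4a1, Nr4a2 and Nr4a3) were taken by name, 7 of 21755 protein-coding genes on chromosomes 1 to 19 and X, and every peak overlapping a gene body or the 10 kb on either side of it was counted. The tissue came from 2 male mice of strain B6CASTF1/J, F1 hybrids of a C57BL/6 and a CAST parent, 36 days old, with 1 library per mouse, called replicate 1 and replicate 2. The labels name no treatment, no altered allele and no second group, so the values describe 1 tissue in both animals, with no test. Both libraries carry the same donor label although their descriptions number them as different males. The files do not tell the parental copies apart.

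Egr proteins are zinc finger factors that bind GC-rich DNA, and Nr4a proteins are orphan nuclear receptors that act without a known hormone. In cortical neurons, both families are known as early genes: calcium entry and growth factor signals start their transcription through factors already bound near the start sites. These factors include SRF, which binds the CArG box together with ETS-domain partners, CREB, which binds the cAMP response element (CRE), and MEF2 proteins. The products then bind the regulatory DNA of later genes.

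The height of a peak is the signal the authors gave it. In each library, every height was a whole multiple of a smallest step, and heights are read here as cut counts scaled to 1 M cuts per library (cuts per M), which puts the libraries at 160 M cuts (replicate 1) and 145 M (replicate 2). The shorter of the authors' peak lists, used here, held 72021 and 59150 peaks with median heights of 1.18 and 0.963. Marker promoters were checked against the tissue label. All 4 excitatory neuron genes examined (Slc17a7, Neurod2, Neurod6 and Tbr1) had a peak in each mouse. So did 2 of 3 astrocyte, 2 of 3 oligodendrocyte and 1 of 3 microglial genes, beside 57.7% of all coding genes. The highest peaks of Slc17a7, Tbr1 and the oligodendrocyte gene Mbp lay at different places in the mice. The 3 inhibitory neuron genes had a peak in 1 mouse each. Neither the endothelial genes (Cldn5 and Cdh5) nor the genes of other tissues (Alb, Hoxa10, Hoxc10 and Cd3d) had any. In bulk tissue, fewer cells with an open site and fewer cuts per cell cannot be told apart.

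The DNA directly upstream of the start sites is shown for 5 of the genes, because it carries the CRE half-sites that all 7 promoters shared. Each run is the 200 bp before an annotated start site of the gene, 5′ to 3′ on the gene's strand, from the RefSeq genome sequence of GRCm38.p6 (mm10). Capitals mark CRE half-sites (TGACG or its reverse complement CGTCA), the full CRE of Nr4a2, the CArG box of Egr2 and the EGR site of Nr4a1. The runs lie at chr10:67537669-67537868 (Egr2, plus strand), chr6:85513590-85513789 (Egr4, minus strand), chr15:101266646-101266845 (Nr4a1, plus strand), chr2:57115039-57115238 (Nr4a2, minus strand) and chr4:48044953-48045152 (Nr4a3, plus strand). None of these bases lies in an annotated exon of its gene.
Egr2: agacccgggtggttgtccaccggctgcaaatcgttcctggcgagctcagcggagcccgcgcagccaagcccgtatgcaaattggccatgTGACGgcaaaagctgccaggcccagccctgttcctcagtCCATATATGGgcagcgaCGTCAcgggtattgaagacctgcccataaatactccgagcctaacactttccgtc
Egr4: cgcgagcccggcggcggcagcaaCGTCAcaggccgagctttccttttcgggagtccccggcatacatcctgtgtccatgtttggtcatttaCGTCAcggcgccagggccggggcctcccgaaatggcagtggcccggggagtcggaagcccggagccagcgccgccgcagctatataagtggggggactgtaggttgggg
Nr4a1: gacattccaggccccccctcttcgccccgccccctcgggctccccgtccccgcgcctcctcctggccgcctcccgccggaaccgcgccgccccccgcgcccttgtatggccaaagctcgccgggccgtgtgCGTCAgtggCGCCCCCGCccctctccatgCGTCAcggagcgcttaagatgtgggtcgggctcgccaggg
Nr4a2: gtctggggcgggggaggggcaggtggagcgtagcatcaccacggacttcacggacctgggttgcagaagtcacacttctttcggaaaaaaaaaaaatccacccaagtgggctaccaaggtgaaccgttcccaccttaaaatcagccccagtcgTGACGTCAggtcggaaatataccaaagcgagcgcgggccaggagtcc
Nr4a3: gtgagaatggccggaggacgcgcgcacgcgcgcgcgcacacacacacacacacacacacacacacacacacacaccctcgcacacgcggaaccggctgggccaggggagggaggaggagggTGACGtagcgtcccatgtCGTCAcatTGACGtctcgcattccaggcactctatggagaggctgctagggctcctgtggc

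The annotation (GENCODE M21, mm10) places Egr1 at chr18:34859823-34864984, Egr2 at chr10:67535475-67542188, Egr3 at chr14:70077203-70082614, Nr4a1 at chr15:101254269-101274795 and Nr4a3 at chr4:48045153-48086447, on the plus strand. Egr4 lies at chr6:85511121-85513589 and Nr4a2 at chr2:57106830-57124003, on the minus strand.

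Promoter peaks were present at all 7 genes in both mice, meaning a peak that came within 1 kb of an annotated start site. Over all coding genes, 63.5% had one in replicate 1, 58.4% in replicate 2 and 57.7% in both. The median over the 7 genes of the mean height of the highest promoter peak was 4.07, beside 3.79 over the 12548 coding genes with a peak in both mice. In replicate 1 the median of the members was below that of these coding genes (4.64 against 4.79), and in replicate 2 above it (3.08 against 2.69). The share of all coding genes with a lower mean height, those without a peak included, ran from 59.8% for Nr4a2 to 93.9% for Egr1.

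Egr1, a factor linked to synaptic plasticity, had the highest promoter peak, 9.48 in replicate 1 and 5.54 in replicate 2 (7.51 ± 2.79, mean ± SD, n = 2 mice, here and below). The highest peaks lay at different places. In replicate 1 it was at the upstream start site of the gene, and in replicate 2 it lay 77 bp before the other start site. Both places were open in both mice, with heights of 9.48 and 4.03 at the former (6.76 ± 3.85) and of 9.26 and 5.54 at the latter (7.40 ± 2.63). Between them, replicate 1 had a peak of 5.71 and replicate 2 a neighbouring peak of 3.27 that did not overlap it.

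Nr4a1, also called Nur77, had heights of 6.58 and 3.08 (4.83 ± 2.48) at the start site shown above, which lies inside the longer transcript. Its upstream start site had 4.37 and 1.39 (2.88 ± 2.10), so the inner promoter was the higher of the pair in both mice. Egr4 has a single annotated start site, and the peak there had 5.81 and 3.62 (4.71 ± 1.55). Egr3, a factor known for its part in muscle spindles and in neurons, had 4.64 and 3.51 (4.07 ± 0.801), with the peak centred 313 and 333 bp before the nearest start site.

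Egr2, known for its part in myelinating Schwann cells and in hindbrain patterning, had 3.95 and 3.05 (3.50 ± 0.631). Nr4a3 had 4.56 and 2.17 (3.36 ± 1.69). Nr4a2, also called Nurr1 and needed for midbrain dopamine neurons, had the lowest mean, 4.15 and 0.908 (2.53 ± 2.29). In the order Egr1, Nr4a1, Egr4, Egr3, Egr2, Nr4a3 and Nr4a2, every pair of neighbours overlapped in the ranges of its mice. The lower of the Egr1 heights (5.54) exceeded both heights of Egr3, Egr2, Nr4a3 and Nr4a2.

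**Figure D1:**
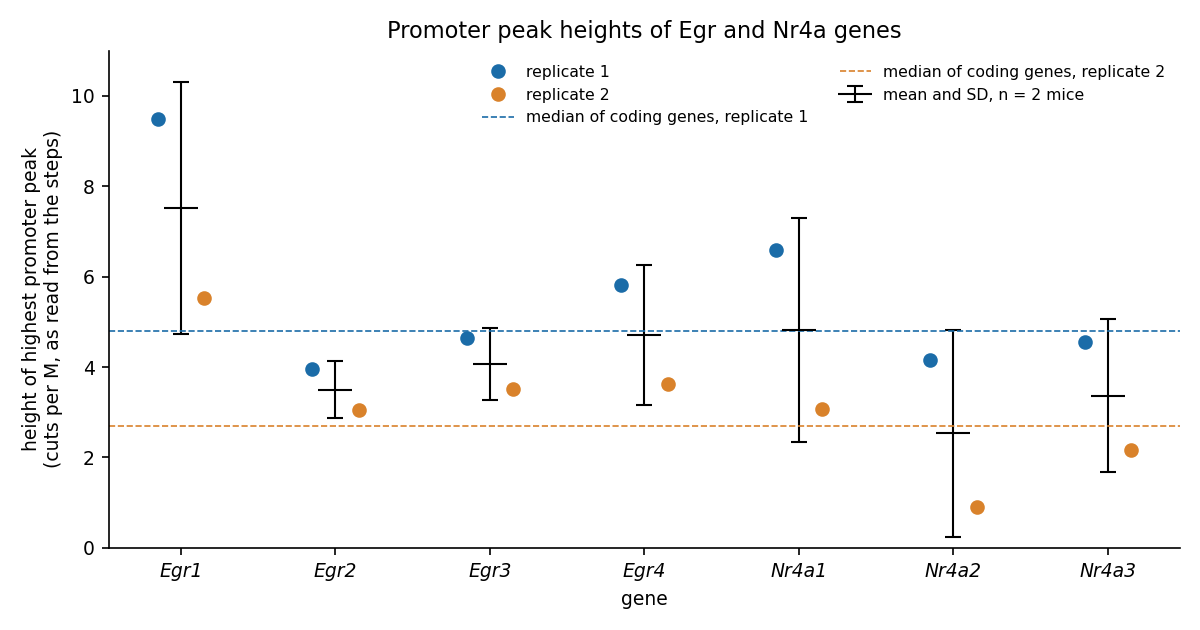
Height of the highest promoter peak (cuts per M) of each gene in replicate 1 (blue) and replicate 2 (orange), with mean and SD over 2 mice and dashed lines at the medians of coding genes with a peak in both mice, 4.79 and 2.69. The blue point is above the orange one for all 7 genes, and the gap is widest relative to height for Nr4a2 (4.15 against 0.908).

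All 7 promoters were higher in replicate 1. That was also so for 91.1% of coding genes with a peak in both mice, so the members shared the direction of nearly all promoters. The median log2 of replicate 2 over replicate 1 was -0.78 for the members and -0.73 for coding genes. The difference was smallest for Egr2 (-0.37) and Egr3 (-0.40). Egr4 (-0.68), Egr1 (-0.78), Nr4a3 (-1.07) and Nr4a1 (-1.10) followed.

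Nr4a2 stood apart with -2.19, a height 4.57 times larger in replicate 1. Only 0.231% of coding genes had a lower log2 ratio, and 0.592% of the 1857 genes of like mean height did. The 95% Poisson intervals, which cover counting error only, were 3.84 to 4.48 in replicate 1 and 0.760 to 1.08 in replicate 2. Such intervals did not overlap between the mice for any of the 7 genes, so they do not set Nr4a2 apart. After division by each library's median promoter height the log2 ratio of Nr4a2 was -1.46, while the other 6 genes lay between -0.36 and 0.36.

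Peaks were dense around these genes, more so at the Egr than at the Nr4a loci. Replicate 1 had 66 peaks over the 7 loci and replicate 2 had 39. Per locus, in replicate 1 and replicate 2, there were 9 and 8 at Egr1, 10 and 6 at Egr2, 13 and 5 at Egr3, and 12 and 8 at Egr4. Among the Nr4a genes there were 5 and 7 at Nr4a1, 8 and 1 at Nr4a2, and 9 and 4 at Nr4a3. Listed peaks of replicate 1 that overlap one another, as at Egr2, Egr3, Egr4 and Nr4a2, were each counted, so its counts exceed the separate places. With overlaps merged, the loci held 31 sites in both mice, 27 in replicate 1 alone and 7 in replicate 2 alone. The median over coding genes, also counted by peak, was 2 in each mouse.

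Measured per length of the window, the members had a median of 2.99 peaks per 10 kb (mean of both mice) against 0.433 for coding genes. The share of coding genes with a lower density ran from 83.1% (Nr4a3) to 99.9% (Egr4). The windows of the Egr genes, 22469 to 26714 bp, were shorter than those of the Nr4a genes, 37174 to 61295 bp, and the density counts the start site in each. Coding genes whose window was within 20% of the same length had a median of 1 peak in each mouse for all 4 Egr windows. Egr1 exceeded 97.2% of them in replicate 1 and 99.3% in replicate 2. The lowest such share among the Egr genes was 93.04% (Egr3, replicate 2). Nr4a1 exceeded 80.2% of its like-length genes in replicate 1 and 97.3% in replicate 2, and Nr4a3 94.8% and 70.4%. Nr4a2 exceeded 94.99% of its like-length genes in replicate 1 but 20.5% in replicate 2.

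**Figure D2:**
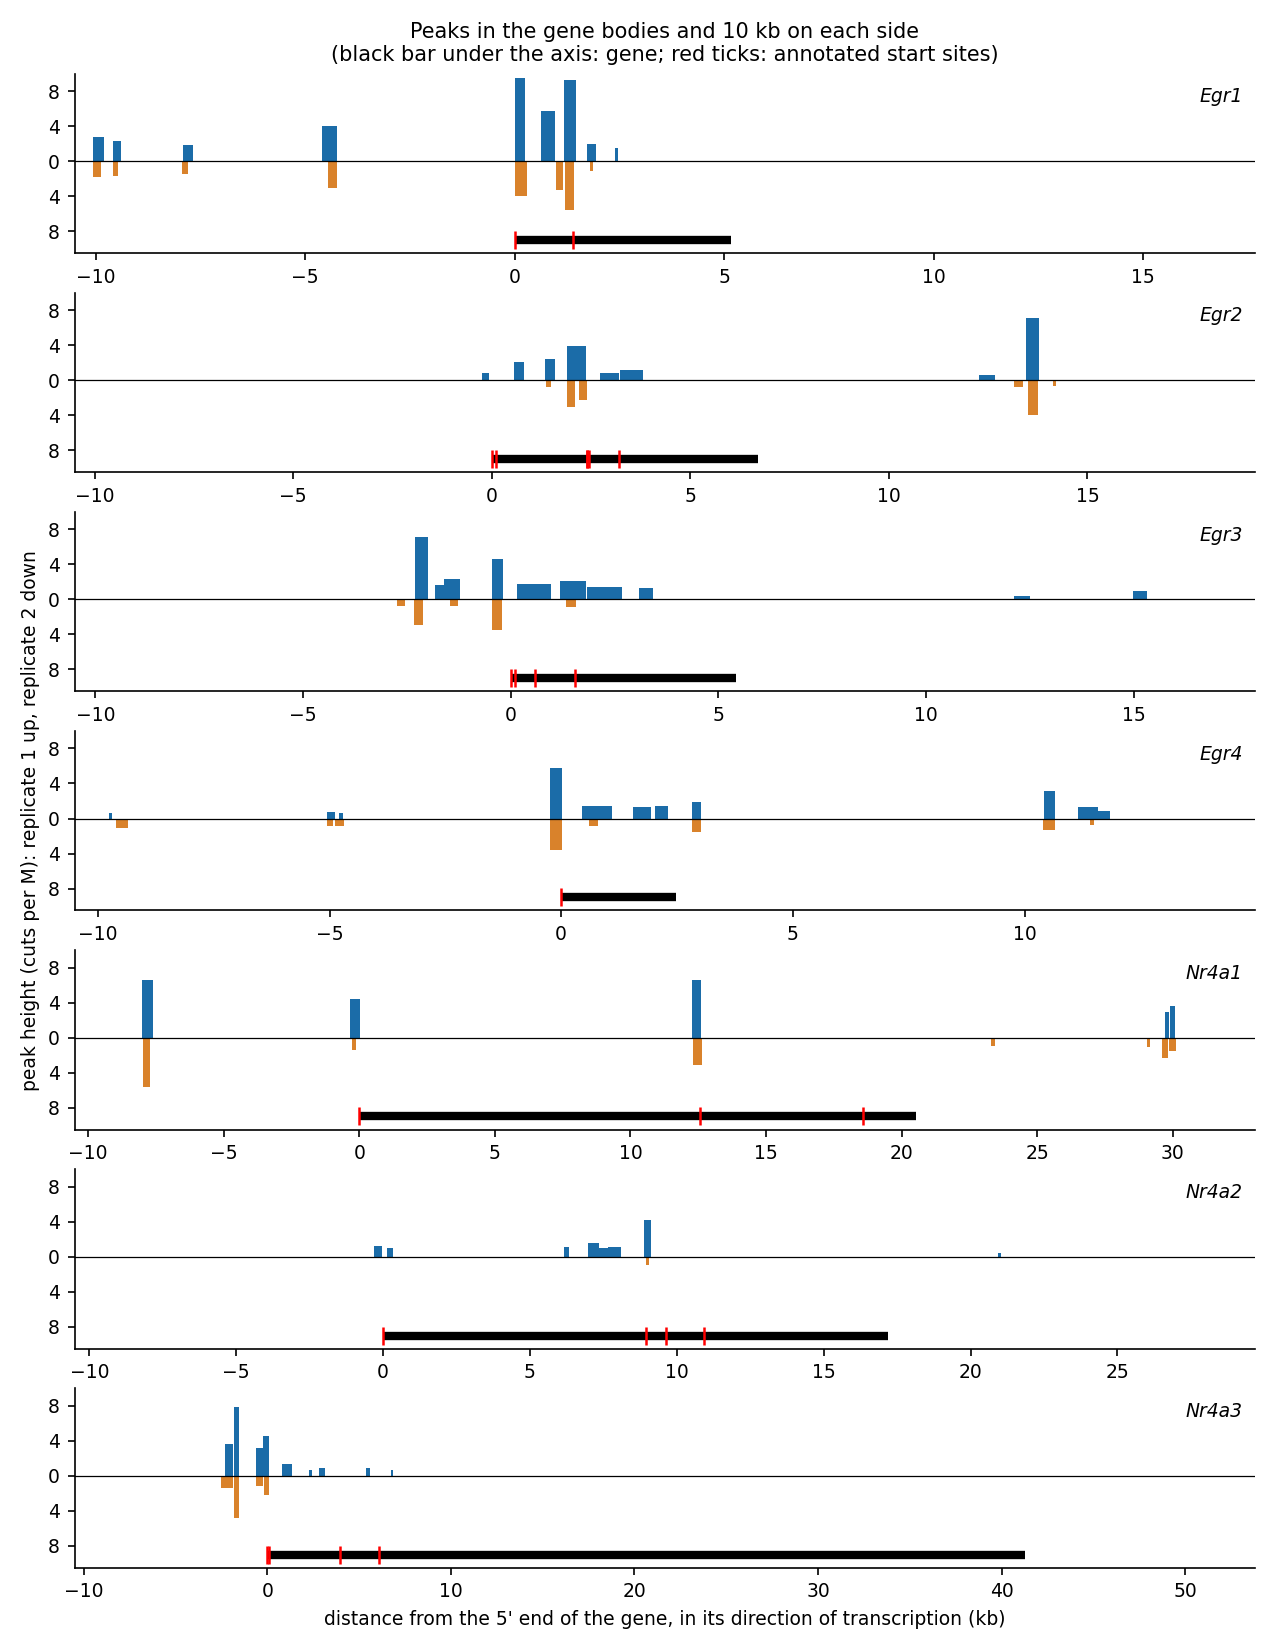
Peaks over each gene body and 10 kb on each side, by distance from the 5′ end of the gene (kb), with the height in replicate 1 drawn upward and in replicate 2 downward (cuts per M), the gene as a black bar and annotated start sites in red. Tall pairs of bars stand at the start sites and upstream of them, while the low bars inside the gene bodies of Egr3, Egr4, Nr4a2 and Nr4a3 are mostly those of replicate 1.

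The peaks of both mice merged into 65 sites at the 7 loci. Of these, 31 were in both mice, 27 in replicate 1 alone and 7 in replicate 2 alone. The shared part, 47.7%, was near that of all 83641 sites, 52.5%. Sites within 1 kb of a member's start site were in both mice in 14 of 27 cases, beside 61.9% of all promoter sites. Upstream sites were in both in 11 of 14 cases, beside 51.4% of all intergenic sites. Of 9 exonic and intronic sites away from start sites, 0 were in both, and all 9 were in replicate 1 alone, beside 45.3% of all gene body sites that were in both.

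The gene body sites of replicate 1 were low, from 0.668 (an intron of Nr4a3) to 1.61 (an intron of Nr4a2). They also lay at Egr3 (1.28, exon), Egr4 (1.47 and 1.30, exon) and Egr1 (1.499, intron). Peaks that were in replicate 1 alone had a median height of 1.04 at the member loci, against 3.67 for those also in replicate 2. The lists give no value under their threshold. Of the 34 peaks of replicate 1 with no partner, 10 overlapped a peak of the longer list of replicate 2.

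Over all sites in both mice, 34900 of 43925 were higher in replicate 1 (median log2 of replicate 2 over replicate 1 -0.46). At the member loci, 29 of 31 were (median -0.84). Both exceptions were upstream sites of Egr4, with 0.656 and 0.908 (0.782 ± 0.178) at 4780 bp and 0.693 and 0.853 (0.773 ± 0.113) at 4973 bp before the start site. The heights of the mice had the same order in large part (Spearman rho 0.822 over 31 sites, and 0.824 over all 43925 shared sites). The sites share libraries and loci, so this is a description.

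**Figure D3:**
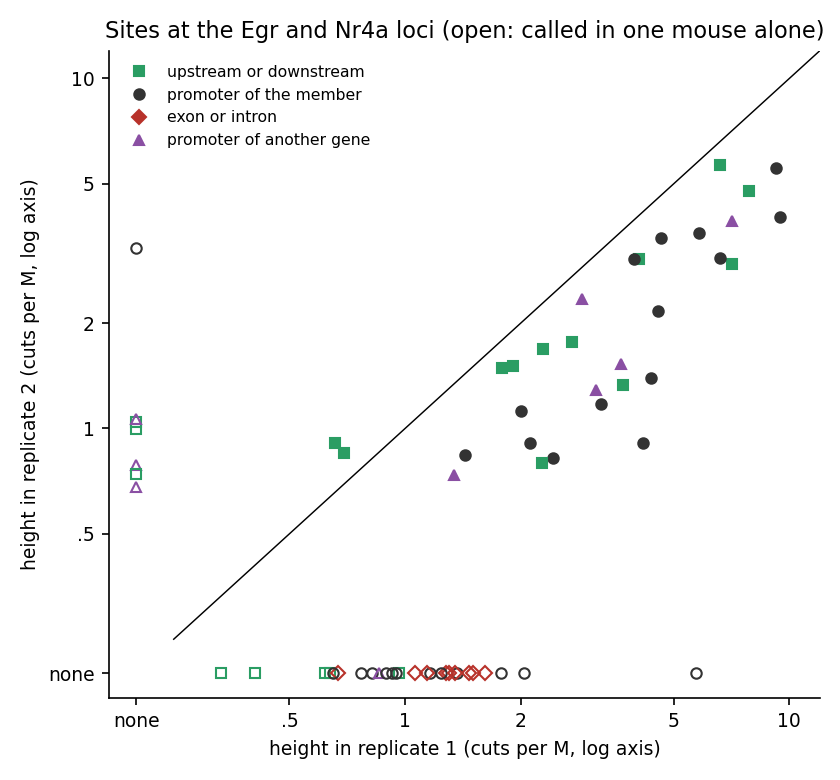
Height of each site in replicate 1 against replicate 2 (cuts per M, log axes, with sites called in 1 mouse alone drawn open at "none"), by position, with the line of equal heights. Of the 31 filled points, 29 lie below the line, and the red exonic and intronic points all lie on the lower margin, with no peak in replicate 2.

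Among peaks that were at no promoter of a coding gene, the highest stood upstream. Start sites of noncoding genes were not checked. Nr4a1 had a site 7.8 kb before its 5′ end with heights of 6.60 and 5.65 (6.13 ± 0.670). It equalled the Nr4a1 promoter in replicate 1, at 1.00 times its height, and was 1.84 times as high in replicate 2. Nr4a3 had a site centred 1693 bp before its start site with 7.87 and 4.78 (6.33 ± 2.18), which was 1.73 and 2.21 times the height of its promoter. At Egr3, a site about 2.2 kb upstream had 7.10 and 2.94 (5.02 ± 2.94), higher than the promoter in replicate 1 (1.53 times) and lower in replicate 2 (0.839 times).

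At Egr1 there were 4 upstream sites, all in both mice, between 4.4 and 9.9 kb before the gene. The highest, at 4.4 kb, had 4.05 and 3.04 (3.55 ± 0.716), 0.428 and 0.549 times the promoter. The other 3 had means of 2.25 ± 0.675, 1.99 ± 0.425 and 1.64 ± 0.208. Egr4 had a site 2.9 kb downstream of its start, past the end of the gene, with 1.91 and 1.51 (1.71 ± 0.286). The highest such peak of Nr4a2 lay in an intron (1.61) and that of Egr2 downstream (0.637). Neither had a counterpart in replicate 2.

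Of the sites just described, the upstream ones of Nr4a1 and Nr4a3 are shown, since they were as high as or higher than the promoters of these genes. The bounds are those of the peak in replicate 2, on the plus strand of GRCm38.p6, chr15:101246301-101246560 for Nr4a1 and chr4:48043341-48043580 for Nr4a3. Capitals mark CRE half-sites and, at Nr4a1, an EGR site (GCGNGGGCG).
Nr4a1 upstream site: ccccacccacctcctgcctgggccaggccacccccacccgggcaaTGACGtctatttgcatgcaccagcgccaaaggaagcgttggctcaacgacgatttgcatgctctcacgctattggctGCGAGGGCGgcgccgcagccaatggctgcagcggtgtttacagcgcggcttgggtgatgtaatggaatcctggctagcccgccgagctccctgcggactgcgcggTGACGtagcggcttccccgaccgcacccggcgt
Nr4a3 upstream site: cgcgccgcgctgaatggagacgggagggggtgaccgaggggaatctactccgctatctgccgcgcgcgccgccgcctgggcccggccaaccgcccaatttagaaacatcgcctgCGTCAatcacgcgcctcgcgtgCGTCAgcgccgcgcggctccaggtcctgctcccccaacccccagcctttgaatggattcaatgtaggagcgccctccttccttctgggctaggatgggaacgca

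The EGR site of the Nr4a1 upstream element lay in a footprint in both mice, from position 120 to 128 of the run in replicate 1 and from 123 to 138 in replicate 2. A footprint is a short stretch inside a peak that is protected from cutting, as called by the authors. The second CRE half-site of this run lay in a footprint of replicate 2 and the first in none. At Nr4a3, the second half-site lay in a footprint of replicate 2, from position 134 to 152.

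Some windows held promoters of neighbouring genes, which are counted in the windows but not as promoters of the members. At Egr2, the promoter of Ado, a cysteamine dioxygenase gene, had 7.10 and 3.92 (5.51 ± 2.25), above the Egr2 promoter itself. At Egr4 there were 2 shared sites at Fbxo41, whose highest had 3.14 and 1.29 (2.21 ± 1.31). At Nr4a1 there were 2 at Atg101, an autophagy gene, with 2.88 and 2.34 (2.61 ± 0.382) and with 3.65 and 1.53 (2.59 ± 1.499). Without peaks within 1 kb of another coding gene's start site, 59 and 31 peaks remained.

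The false discovery rate of the cut rate is another readout of the authors, listed per run of bases. At a rate of 0.001 or less, Egr1 had 3458 bases in replicate 1 and 2245 in replicate 2. Egr2 had 5881 and 1862, Egr3 had 6448 and 1403, and Egr4 had 4682 and 1920. In the part of the window covered, the Egr loci exceeded between 95.6% and 99.8% of coding genes in each mouse.

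Nr4a1 had 2304 and 1928 bases (above 84.96% and 93.1% of coding genes in the part covered) and Nr4a3 had 4947 and 1871 (above 92.98% and 82.4%). Nr4a2 had 2815 in replicate 1 and 108 in replicate 2 (above 91.8% and 26.95%), a ratio of 26.1, where the median of coding genes was 1.53. At a rate of 0.05 or less, the Nr4a2 counts were 4933 and 911, a ratio of 5.41 beside a median of 1.43. The longer peak list of replicate 2 held 6 peaks in the Nr4a2 window where the shorter held 1, the highest of the added ones being 0.881. Of these 5 added peaks, 3 overlapped a peak of the shorter list of replicate 1. The listed bases of the whole genome at 0.001 or less came to 26.1 Mb in replicate 1 and 16.2 Mb in replicate 2.

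**Figure D4:**
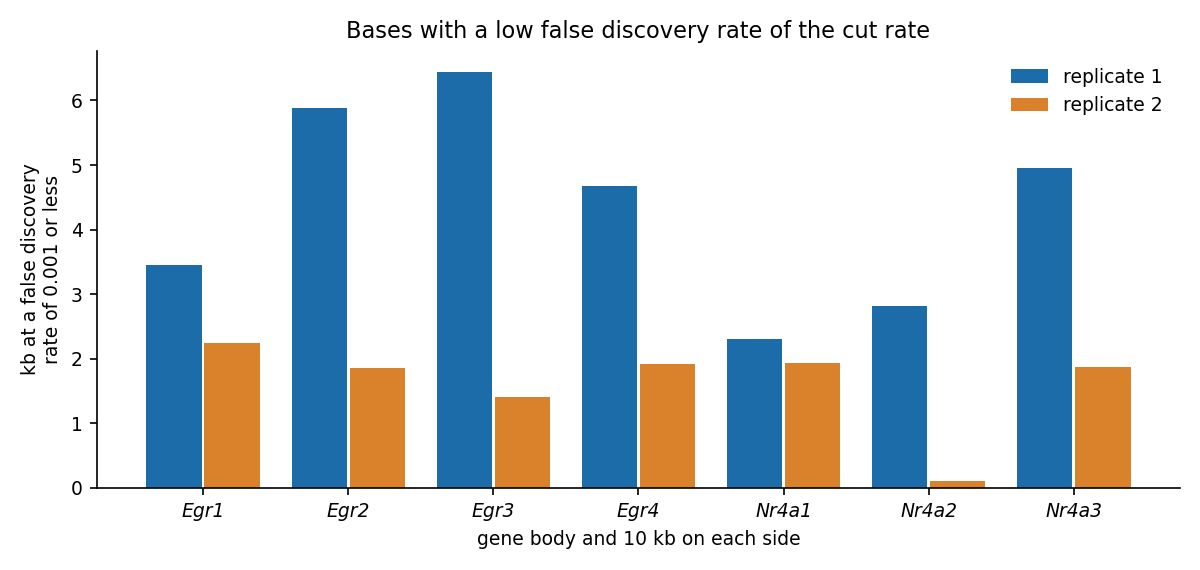
Kilobases at a false discovery rate of 0.001 or less within each gene body and 10 kb on each side, in replicate 1 (blue) and replicate 2 (orange). Replicate 1 is higher at every gene, by 1.195 times at Nr4a1 and 26.1 times at Nr4a2.

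The peaks of the 7 loci held 196 footprints in replicate 1 and 114 in replicate 2, or 2.97 and 2.92 per peak. All peaks had 2.56 and 2.52 per peak, and all promoter peaks 3.29 and 3.18. The Egr peaks had 2.68 and 2.85, and the Nr4a peaks 3.55 and 3.08. By gene, the counts were 32 and 25 for Egr1, 29 and 14 for Egr2, 36 and 15 for Egr3, 21 and 23 for Egr4, 23 and 23 for Nr4a1, 24 and 2 for Nr4a2, and 31 and 12 for Nr4a3. Egr4 and Nr4a1 were thus the genes without a surplus in replicate 1.

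Footprints of replicate 1 overlapped one of replicate 2 in 61 of 196 cases (31.1%, beside 38.04% for all peaks), and those of replicate 2 one of replicate 1 in 58 of 114 (50.9%, beside 46.0%). Egr1, Egr4 and Nr4a1 had the most repeated footprints, with 15, 10 and 13 of those of replicate 1. At Nr4a2, 1 of 24 was repeated. The number of footprints in a peak rose with its height (Spearman rho 0.713 over 66 peaks of replicate 1 and 0.679 over 39 of replicate 2). Peaks of 1 library share its depth, so this is a description.

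In sequence, the member sites were GC-rich, with a median of 63.3% in the 300 bp at the centre, beside 52.3% for all sites and 62.7% for all promoter sites. The ratio of observed to expected CpG was 0.668, between that of all sites (0.337) and of all promoter sites (0.734). By gene, the median GC content of the sites ran from 57.5% at Egr4 to 66.3% at Nr4a3.

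A search of 11 patterns on both strands compared the highest promoter site in both mice of each member with those of 12499 coding genes, in 300 bp at the centre of the site. The CRE half-site TGACG was present at all 7 members and at 37.1% of coding genes. At least 2 copies were present at 6 members, beside 12.001% of coding genes. A full CRE holds 2 overlapping half-sites, and both were counted. In these windows, the full CRE TGACGTCA was at Nr4a2 alone among the members, beside 4.30% of coding genes. Away from the promoters, an upstream site of Egr1 in both mice held a full CRE 9938 bp before the start, in a footprint of replicate 1.

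Of the 19 half-sites in these windows, 17 lay in a footprint of either mouse over at least 50% of their length. For coding genes, 52.6% of 6619 did. Nr4a3 had 4 half-sites, from 77 bp before to 7 bp after the start site, of which 3 lay in footprints of both mice. In the run of Nr4a3 above, the footprints over these 3 spanned positions 117 to 150 in replicate 1, and 116 to 143 and 145 to 151 in replicate 2. The pair of Egr3 half-sites, 392 and 341 bp before the start site, lay in footprints of both mice too. At Egr4, the half-site 107 bp before the start lay in a footprint of both mice, positions 80 to 111 in replicate 1 and 84 to 107 in replicate 2 of the run.

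At Nr4a2 the full CRE, 44 bp before the start site, lay in a footprint of replicate 1, positions 155 to 167 of the run, while the peak of replicate 2 did not reach it. Of the Egr1 half-sites, the one 64 bp before the start site lay in footprints of both mice. At Nr4a1, 2 of 4 lay in a footprint, each of 1 mouse alone. In Nr4a1 the EGR site 56 bp before the start lay in a footprint of both mice (positions 136 to 153 and 135 to 159).

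The CArG box, the binding sequence of SRF, was present at 3 of 7 members, Egr1, Egr2 and Egr3, and at 0.992% of coding genes. None of the Nr4a promoters nor Egr4 held one in this window. The 4 boxes lay in no footprint over 50% of their length, beside 27.3% of 128 in coding genes. Over the whole length of these highest promoter sites, the CArG boxes of Egr1 lay 100 and 78 bp before the start site, those of Egr2 370 and 67 bp and that of Egr3 355 bp. In each of these promoters, a CRE half-site in a footprint lay close by: 64, 53 and 341 bp before the start site. Those of Egr1 and Egr3 were in footprints of both mice and that of Egr2 in a footprint of replicate 1 alone. Egr1 held further CArG boxes 364 and 348 bp before the start site, in a promoter site called in replicate 2 alone. Neither lay in a footprint. ETS cores CCGGAA lay 376 and 316 bp before the start in that site, the latter in a footprint of replicate 2.

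MEF2 matches were present at Nr4a1 alone (1 of 7, beside 0.272%). An EGR site was at Nr4a1 alone as well (1 of 7, beside 12.7%), an ETS core CCGGAA at 2 (31.0%), an SP/KLF box GGGCGG at 4 (69.9%) and a CCAAT box at 2 (39.2%). The NR4A site AAAGGTCA (0.528%), the AP-1 site TGANTCA (3.75%) and the E-box CAGATG (9.82%) were at none of the 7. A match describes letters, and none says only that these letters were not in the window.

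**Figure D5:**
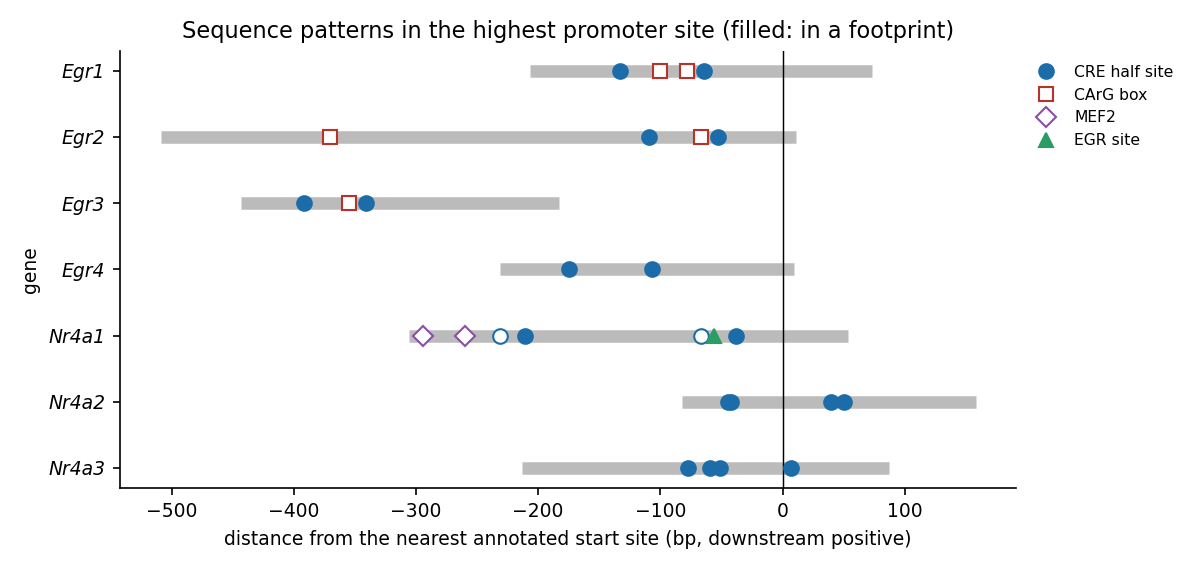
Matches of 4 sequence patterns in the highest shared promoter site of each gene (grey bar) by distance from the nearest annotated start site (bp), filled where a footprint of either mouse covers the match. CRE half-sites (circles) stand at all 7 genes, 18 of 20 filled, while the 5 CArG boxes (squares) stand at Egr1, Egr2 and Egr3 and are all open.

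In the central 300 bp of all 65 sites at the loci, promoters or not, 20 held a CRE half-site (30.8%, 95% Wilson interval 20.9% to 42.8%), beside 18.0% of all sites and 27.2% of all promoter sites. An EGR site was in 10 of them (15.4%, 8.58% to 26.1%), beside 3.94% and 10.6%. A CArG box was in 4 (6.15%, 2.42% to 14.8%), beside 1.36% and 0.991%; over whole sites it was in 5, the fifth being an upstream site of Egr3 with its box 2327 bp before the start. Over the whole length of the sites there were 44 half-sites. Of these, 26 lay in a footprint of either mouse (59.1%), beside 34.5% over all sites. At the highest promoter sites of coding genes, 52.6% did. Of the 32 half-sites in sites of both mice, 8 lay in footprints of both (25%), beside 19.7% over all sites. Of the 2 full CREs in such sites, 0 did, beside 60.3%. No NR4A site was found in the 65 central windows (upper Wilson bound 5.58%), beside 0.733% of all sites. The Wilson intervals treat the sites as independent, although these cluster in 7 loci and some windows overlap. They are given as a description only. RefSeq promoter windows of 300 bp, mostly before a start, were matched for 5 of the 7 genes (9 windows), with Egr1 and Egr3 named only. By gene, at least 1 window of each of the 5 held a half-site, beside 20.8% of 32851 promoters counted by window. The window of Nr4a2, chr2:57123954-57124253, lies at another start site of the gene than the one described above, and replicate 2 had no peak there. Of the 5 Egr2 windows, 3 overlapped and held the same 2 half-sites, and 2 held none.

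The Egr genes had a median promoter height of 4.39 over 4 genes and the Nr4a genes of 3.36 over 3, with ranges that overlapped (3.50 to 7.51 and 2.53 to 4.83). The median log2 of replicate 2 over replicate 1 was -0.54 and -1.10. Shared sites were 21 of 42 at the Egr loci and 10 of 23 at the Nr4a loci.

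Other genes of the same pathways were open too. The promoters of all 10 other early genes had a peak in both mice, beside 57.7% of all coding genes. Their median height was 5.87, beside 3.79 over coding genes with a peak in both mice. Jun, a subunit of AP-1, had 9.39 and 13.5 (11.4 ± 2.91) and was the gene of this list that was higher in replicate 2. Arc, a synaptic protein gene, had 9.30 and 4.61 (6.95 ± 3.32), and Npas4, a factor induced by calcium, had the lowest values, 3.95 and 1.57 (2.76 ± 1.68).

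The 10 upstream regulators also had a peak in both mice, with a median of 5.09. Creb1, which encodes CREB, had 11.8 and 7.34 (9.59 ± 3.18), and Mrtfa, a coactivator of SRF, had 9.10 and 8.87 (8.98 ± 0.165). Mef2c was lowest with 2.38 and 1.09 (1.74 ± 0.909). The 5 partner genes, which encode the Egr corepressors Nab1 and Nab2 and the RXR receptors that pair with Nr4a1 and Nr4a2, had a median of 2.20. Rxrb had 9.78 and 4.84 (7.31 ± 3.50), Nab2 had 3.05 and 1.38 (2.22 ± 1.18) and Rxrg 1.49 and 1.16 (1.33 ± 0.233). The medians of the other early genes and upstream regulators were above the 4.07 of the members. They were also above the 3.79 of coding genes with a peak in both mice. That of the partners was below both.

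By heights in both libraries on the log2 scale, the coding genes nearest to Egr1 were Exd1 and Chp1, both with 9.66 and 5.54 from a peak they share on chromosome 2, at a distance of 0.027. Those nearest to Nr4a2 were Tmem179, with 4.08 and 0.922, and Klc1, with 4.08 and 0.942, at 0.034 and 0.060. This likeness is over 2 libraries only.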

How the data were processed

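The authors deposited, for each of 2 libraries, 2 peak lists, footprints and false discovery rates, all on mm10 and made per library without pooling, per the labels and the deposited file lists. The aligner, the peak caller and their settings were not given in the sources used here. Column 7 of the deposited peak lists is a signal, the height, whose normalization is not stated; 100% of heights lay within 0.05 of a whole step. The deposited false discovery rates are q-values, of which those up to 0.05 were listed. The deposited footprint score is constant and was not used.

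Genes came from GENCODE M21, sequence from GRCm38.p6. Peaks of the shorter list that overlapped a gene body or 10 kb on each side were kept and merged across mice where they overlapped by 1 bp. A site's class follows its midpoint. Footprints lay wholly inside a peak. Genes of like height were within 0.25 on the log2 scale. Coordinates are 1-based. Python 3.11.15, NumPy 2.4.6, SciPy 1.17.1, pysam 0.24.0, samtools 1.23.1 and matplotlib 3.10.9 were used. On simulated data, 1100 of 1100 planted patterns and 1000 of 1000 planted promoter peaks were found.

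With 1 group, errors are the SD over 2 mice and no test was made. Genes named are all members, of each related list the 2 highest and the lowest, the 2 nearest genes to the highest and lowest member, each member's highest promoter and other peak, and genes whose start lies within 1 kb of a peak in a window. Further peaks and the sequences shown were chosen after their values were seen. One marker gene is not reported here. The members and lists were chosen with earlier results of these data known. Other settings tried were the higher 50% of the peaks, the longer list, other windows and flanks, reciprocal overlap, scaling, and leaving out each mouse.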

Additional observations from a re-analysis of the deposited data

How the results depend on the processing

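Of 48 values recomputed under an alternative, 43 kept their direction and moved by less than the spread over the mice, the 95% Wilson interval or 1.5 times for a count. Part of this tally was fixed beforehand. With 1 mouse left out, the spread for a median height was that of the single-mouse values themselves, so a larger move was hardly possible. A peak in both mice at all 7 promoters likewise fixed the count in each mouse alone and in the wider window. An NR4A site in 0 of the member sites fixed its share among those in both mice. Those values add nothing on stability. The other pattern shares of sites in both mice were set against intervals of all member sites, which include them, so they were not independent. All 7 promoters had a peak under every alternative run. The count of peaks in the member loci fell from 66 to 43 in replicate 1 with the higher 50% of the peaks, and to 37 and 13 in replicates 1 and 2 with the gene body alone. The median log2 difference between the mice at member promoters went from -0.78 to -0.042 when heights were divided by the library's median promoter height. The share of member sites with an AP-1 site went from 1.54% to 0 with sites in both mice alone. Without replicate 1 or 2, the number of member promoters with a peak was 7 each time, and the median promoter height of the members ranged from 3.08 to 4.64, of the Egr genes from 3.56 to 5.22 and of the Nr4a genes from 2.17 to 4.56. The same range was 4.33 to 7.45 for the other early genes, 3.17 to 6.72 for the upstream regulators and 1.38 to 2.64 for the partners; these last 5 were added after the data were seen. No paired analysis was possible because there is 1 group. The lists hold no value under their threshold, so a site missing from the list of 1 mouse is not shown to be closed there; the part of depth in this was not tested.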
